A study of Mus musculus with 8 samples.

Results

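Lactylation of histone H4 at lysine 12 (H4K12la) was compared in microglia, the resident macrophages of the brain, between 5XFAD and wild-type (WT) mice. The comparison used the 4 microglia libraries, microglia 5XFAD 1 and 2 and microglia WT 1 and 2, chosen by their labels out of 8 libraries in the series. The other 4 libraries came from total brain cells of the same genotypes (total cells 5XFAD 1 and 2, total cells WT 1 and 2) and were used only as a second look at regions found in microglia. 5XFAD mice carry mutated human transgenes driven by a mouse Thy1 promoter, a model of the amyloid pathology of Alzheimer disease, and the WT mice were labelled by genotype alone. Both genotypes were perfused, the brain without cerebellum was dissociated, and microglia were pulled out with beads against CD11b, a surface antigen that other myeloid cells share. The sources used here give neither the age and sex of the mice, nor the strain of the WT mice, nor whether a library came from 1 animal or a pool. A p-value therefore reflects the spread among these libraries alone, which may be technical.

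Histone lactylation is an acyl mark on lysine that is fed by lactate, the end product of glycolysis, and it sits mostly at active promoters and enhancers. Microglia around amyloid plaques are known to leave a homeostatic state, marked by genes such as P2ry12 and Cx3cr1, for a disease-associated one that turns on lipid, lysosomal and phagocytic genes downstream of the receptor TREM2. H4K12la was mapped by CUT&Tag, where a transposase held by the antibody cuts and tags nearby DNA for sequencing. The authors deposited a peak list for each library, giving the position of each peak and a score whose unit is not stated. A score ranks peaks within its own list and was not compared between lists, apart from an alternative setting that kept scores of at least 50 in every list. Reads are not counted in the lists, so depth is unknown, and a missing peak means that none was listed.

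The peak lists of 5XFAD microglia were longer on average, but the ranges of the genotypes overlapped. Microglia 5XFAD 1 and 2 had 29947 and 41783 peaks, against 22300 and 33500 peaks in microglia WT 1 and 2. The peaks covered 22.1 and 36.3 Mb in 5XFAD and 15.3 and 26.1 Mb in WT microglia, and their median widths were 629 and 734 bp in 5XFAD and 580 and 647 bp in WT. WT 2 lay above 5XFAD 1 in all 3 measures, and no difference could be told from the spread between libraries (exact two-sided permutation test, p = 0.667 for each, n = 2 each, where 0.333 is the smallest p that 2 against 2 allows). Overlap of covered bases (Jaccard index, shared bases over all covered bases) was 0.534 between the 5XFAD libraries and 0.487 between the WT libraries. Between genotypes it was 0.495 for 5XFAD 2 and WT 2, 0.488 for 5XFAD 1 and WT 2, 0.438 for 5XFAD 1 and WT 1 and 0.356 for 5XFAD 2 and WT 1, so that with all peaks WT 2 was as close to both 5XFAD libraries as to WT 1. With equal numbers of peaks WT 2 overlapped most with WT 1, at 0.537, against 0.525 with 5XFAD 2 and 0.507 with 5XFAD 1. Because list length differed, the main counts below are also given with the 22300 highest-scoring peaks of every list, called equal numbers of peaks. Calls made both with all peaks and with equal numbers are named as called both ways.

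Homeostatic microglia genes were marked more often than all genes in every microglia library. Of 20 such genes, 17 and 19 had a peak within 2 kb of an annotated gene end in 5XFAD 1 and 2, and 16 and 18 in WT 1 and 2. Of all genes, 40.9% and 49.0% had one in 5XFAD and 33.3% and 43.5% in WT. The homeostatic share lay 44.1 and 46.0 points above that of all genes in 5XFAD microglia and 46.7 and 46.5 in WT microglia. In total cells it lay 8.15 and 5.31 points above in 5XFAD, and the values were -6.47 and 5.77 in WT. The same count was 2 and 3 of 19 neuronal genes in 5XFAD against 2 and 1 in WT, 3 and 4 of 12 astrocyte genes in both genotypes, and 2 and 3 of 14 oligodendrocyte genes in 5XFAD against 2 and 2 in WT. Vascular genes had 3 and 7 of 14 in 5XFAD against 4 and 6 in WT, and markers of other leukocytes 3 and 4 of 15 in 5XFAD against 2 and 4 in WT. The vascular share in 5XFAD 2, 50%, was not below that of all genes. Oligodendrocyte genes were also marked less often than all genes in total cells, by -27.6 and -27.5 points in 5XFAD and -29.3 and -27.1 in WT. Low counts of other cells' genes therefore do not check the microglia labels. None of 15 genes of other tissues had such a peak in any list. The Y-linked genes Ddx3y, Eif2s3y and Uty had gene-end peaks in all 4 microglia lists and Xist had none in any. Kdm5d, also Y-linked, had one in 5XFAD 2 alone, with a score of 77. No gene of this check separated both 5XFAD from both WT libraries.

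Thy1, a neuronal surface protein gene whose promoter drives the transgenes, separated the genotypes completely. Thy1 (gene 21838, GRCm38 chromosome 9, 44043384 to 44048579) was overlapped by peaks over 3568 and 4705 bp in 5XFAD microglia and over 0 and 0 bp in WT microglia, counting 2 kb on either side. These bases formed 4 separate regions, the strongest at 44047993 to 44050018 with scores of 243 and 353 in 5XFAD 1 and 2. In total cells, too, both 5XFAD lists held peaks in all 4 regions and the WT lists held none. Reads from transgene copies and from the endogenous Thy1 promoter cannot be told apart in these lists, so the Thy1 peaks check the genotype labels and say nothing certain about the endogenous gene.

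Peaks of the 4 microglia lists were merged where they overlapped, which gave 49138 regions, 16717 of them in all 4 lists. A region was called 5XFAD only, or a gain for short, when both 5XFAD lists and neither WT list held a peak there, and WT only, or a loss, for the opposite. Of the merged regions, 4505 were 5XFAD only (9.17%) and 910 were WT only (1.85%). With equal numbers of peaks, 2304 of 32237 regions were 5XFAD only (7.15%) and 1815 were WT only (5.63%), so the directions were closer in number once list length was set equal. Called both ways were 1383 regions in 5XFAD only (2.81%) and 441 in WT only (0.897%). Another 3062 regions were held by 5XFAD 2 and WT 2, the longer list of each genotype, and by neither of the shorter lists. Counts of this kind grow when a library is dropped, since fewer lists must then agree. There were 13492 5XFAD-only regions without 5XFAD 1 and 9695 without WT 2, and the WT-only count was 5378 without WT 1, 2690 without 5XFAD 2 and 1709 without WT 2.

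More than any other place, gains and losses lay inside genes, as did merged regions in general. Each region was placed at a gene end if it reached within 2 kb of an annotated end of a protein-coding gene, otherwise inside a gene, and otherwise as distal. The 4505 5XFAD-only regions comprised 1084 at gene ends (24.1%), 2420 inside genes (53.7%) and 1001 distal (22.2%). The 910 WT-only regions comprised 229 at gene ends (25.2%), 512 inside genes (56.3%) and 169 distal (18.6%), and all merged regions had shares of 28.3%, 52.3% and 19.4% in the same order. Read the other way, 5XFAD-only regions were 7.81% of gene-end regions, 9.41% of intragenic regions and 10.5% of distal regions, while WT-only regions were 1.65%, 1.99% and 1.77% of them. Of regions called both ways, 289, 756 and 338 were 5XFAD only at gene ends, inside genes and distal, against 112, 234 and 95 in WT only. Distal peaks made up 19.9% and 19.5% of the 5XFAD lists and 19.2% and 19.1% of the WT lists, a difference of 0.516 percentage points without overlap of the genotypes (exact permutation p = 0.333, the smallest possible, n = 2 each). With all peaks, 851 of the 5XFAD-only regions (18.9%) and 233 of the WT-only regions (25.6%) lay within 5 kb of a region held by all 4 lists. With equal numbers of peaks these were 469 5XFAD-only regions (20.4%) and 914 WT-only regions (50.4%). A region called at that setting can itself be held by all 4 full lists and is then counted. These 2 shares therefore do not measure nearness to other regions.

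**Figure D1:**
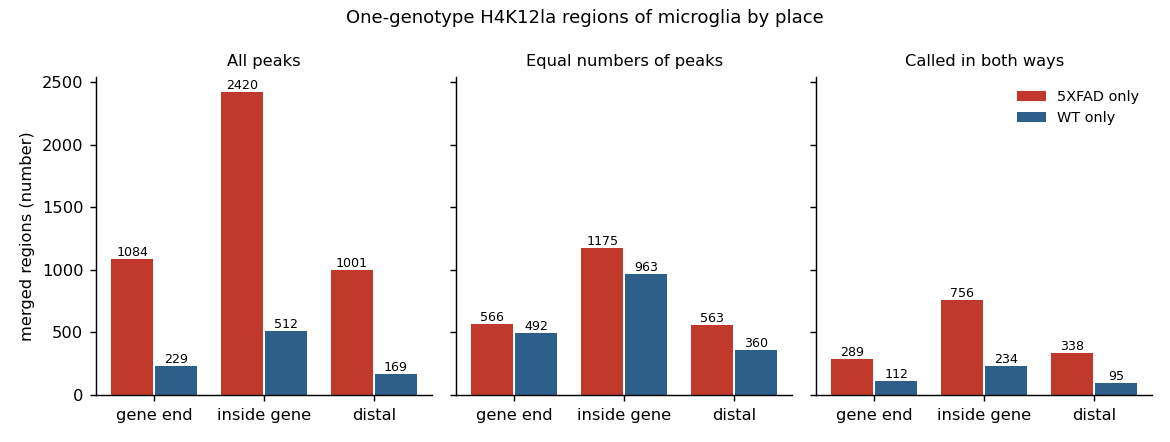
Number of merged regions (vertical axis) called 5XFAD only (red) or WT only (blue) in microglia, at gene ends, inside genes and distal, with all peaks, with equal numbers of peaks and for regions called both ways. The red bars exceed the blue ones everywhere, by 2420 to 512 inside genes with all peaks but by 1175 to 963 with equal numbers of peaks.

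Regions that all 4 lists held were often wider in 5XFAD microglia. The median number of covered bases in these 16717 regions was 842 and 1130 in 5XFAD 1 and 2 and 689 and 948 in WT 1 and 2, ranges that overlap (exact permutation p = 0.667, n = 2 each). In 5327 of them (31.9%) every 5XFAD library covered more bases than every WT library, and in 1000 (5.98%) every WT library covered more. Equal numbers of peaks gave 4325 (32.4%) and 772 (5.78%) of 13361 regions, and the medians were 908 and 1195 bp in 5XFAD against 760 and 1011 bp in WT. Longer lists also held wider peaks, and the part of list length in these widths was not tested.

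At gene ends, 698 of 21887 protein-coding genes were 5XFAD only (3.19%) and 127 were WT only (0.58%). Equal numbers of peaks gave 492 (2.25%) and 389 (1.78%), and 228 (1.04%) and 62 (0.283%) were called both ways. Over whole gene bodies with 2 kb on either side, 615 genes were 5XFAD only (2.81%) and 109 WT only (0.498%). The 5XFAD-only count was 1591 without 5XFAD 1 and 2216 without WT 2, and the WT-only count was 571 without 5XFAD 2 and 508 without WT 1. Start sites carried more of these calls than far ends, where the strand of the gene was at hand: of 17492 such genes, 568 were 5XFAD only (3.25%) and 94 WT only (0.537%) at the start site, against 326 (1.86%) and 48 (0.274%) at the far end. Far ends also held fewer peaks of any kind. No list held one at 14016 far ends (80.1%), against 8646 start sites (49.4%). The shares are of all these genes, so they show no preference of the calls for marked start sites. Start-site calls with equal numbers of peaks were 374 (2.14%) and 299 (1.71%). A gene-end call often left other peaks in place. Of the 698 5XFAD-only genes, 236 (33.8%) had a peak elsewhere in the gene body in at least 1 WT library, and of the 127 WT-only genes, 49 (38.6%) had one in a 5XFAD library.

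Among genes called both ways, the 10 with the highest mean score percentile were Gm5796, Gm7102, Thy1, Efr3b, Qpct, Iqce, Apoc2, Gm44805, 9930111J21Rik2 and Sft2d3 on the 5XFAD-only side. Apoc2 and Gm44805 share their call, which rests on the edge of a region that WT lists also hold: Apoc2 was reached over 13 and 90 bp in 5XFAD and 0 and 0 bp in WT. Efr3b likewise had no 5XFAD-only region at a gene end, and that of Iqce scored 64 and 67 in 5XFAD, below the best gene-end scores of 198 and 293 that ranked the gene. Qpct, which encodes an enzyme that turns N-terminal glutamine or glutamate into pyroglutamate, carried 4 5XFAD-only regions among its 5, and its gene-end peak at chromosome 17, 79051727 to 79053570 had scores of 204 and 308 in 5XFAD 1 and 2. Lyz2, the macrophage lysozyme gene, had its single region at the far end of the gene (chromosome 10, 117277523 to 117278545), with scores of 140 and 279 in 5XFAD and no peak in WT. The 10 on the WT-only side were Tmem170, Tmem192, Rcn2, Gpr75, Klf7, Zfp12, Pnp2, Cfap97d1 and the predicted genes Gm3239 and Gm3264. Cfap97d1 was reached only by the edge of a region that 5XFAD lists also hold, over 0 and 0 bp in 5XFAD and 29 and 24 bp in WT. Pnp2, whose product works in purine salvage, had peaks over 0 and 0 bp in 5XFAD and 1098 and 2029 bp in WT. Gm5796, Gm32966, Gm3239, Gm3264 and Gm26650 lie in a stretch of chromosome 14 that holds near-identical gene copies, and their calls are uncertain because reads may be shared between copies.

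The 250 bases before the annotated start are shown for 4 genes whose start-site peak was called in 1 genotype, so that promoters of both directions can be read side by side. Bnip3, an outer mitochondrial membrane protein of mitophagy, and Ero1a, an oxidase of the endoplasmic reticulum, are hypoxia targets called 5XFAD only. Tmem192, a lysosomal membrane protein, and Zfp12, a zinc finger protein, were called WT only. Sequences are from RefSeq for GRCm38.p6 and run 5′ to 3′ on the gene's own strand. Capitals mark ACGTG on either strand, 1 form of the core of the hypoxia response element, with the palindrome CACGTG counted as 1 site.
Bnip3 (5XFAD only, minus strand, chr7:138909507-138909756): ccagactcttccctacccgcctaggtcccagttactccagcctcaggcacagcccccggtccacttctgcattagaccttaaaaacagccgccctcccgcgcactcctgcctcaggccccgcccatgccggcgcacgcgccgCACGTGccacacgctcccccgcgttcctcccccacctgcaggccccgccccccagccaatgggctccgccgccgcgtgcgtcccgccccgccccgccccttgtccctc
Ero1a (5XFAD only, minus strand, chr14:45318573-45318822): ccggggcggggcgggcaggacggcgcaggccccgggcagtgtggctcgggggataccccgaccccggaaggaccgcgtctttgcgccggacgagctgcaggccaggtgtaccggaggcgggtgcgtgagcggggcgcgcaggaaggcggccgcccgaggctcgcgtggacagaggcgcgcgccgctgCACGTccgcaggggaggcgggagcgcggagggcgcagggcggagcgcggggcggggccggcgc
Tmem192 (WT only, plus strand, chr8:64946935-64947184): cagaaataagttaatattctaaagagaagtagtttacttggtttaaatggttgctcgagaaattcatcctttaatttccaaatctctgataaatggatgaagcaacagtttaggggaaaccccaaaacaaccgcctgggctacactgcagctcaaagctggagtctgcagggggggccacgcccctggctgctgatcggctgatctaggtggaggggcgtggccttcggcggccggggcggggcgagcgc
Zfp12 (WT only, plus strand, chr5:143234913-143235162): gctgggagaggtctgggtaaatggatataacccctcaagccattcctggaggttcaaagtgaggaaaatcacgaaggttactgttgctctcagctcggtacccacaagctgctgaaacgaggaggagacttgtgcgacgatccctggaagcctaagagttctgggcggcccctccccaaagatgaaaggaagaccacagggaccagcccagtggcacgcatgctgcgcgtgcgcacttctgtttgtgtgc
Bnip3 and Ero1a each held 1 ACGTG site, and Tmem192 and Zfp12 held none. Bnip3 and Ero1a are shown as hypoxia targets, and the 5XFAD-only promoters of Itgb8, Ppia and 9930111J21Rik2 held no ACGTG site. GCGTG, which differs in the first base, can be read in each of the printed sequences, also those of Tmem192 and Zfp12. It was not marked or counted. In the same window ACGTG occurred in 20.1% of the 568 start sites that were 5XFAD only, in 11.7% of the 94 that were WT only, in 22.6% of the 4880 with a peak in all 4 lists and in 17.6% of all 17492. GAGGAAGT, a form of the binding motif of the myeloid factor PU.1, occurred in 2.64%, 3.19%, 2.83% and 2.18% of these groups, and TGACTCA, the AP-1 motif, in 2.46%, 1.06%, 2.95% and 4.0%, both read on either strand. The called promoters resembled constant ones in base composition: the median GC content was 59.2% for 5XFAD only, 60.0% for WT only and 59.2% for all 4 lists, against 49.4% where no list held a start-site peak. The median numbers of CpG were 15, 14, 15 and 3 in the same order.

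At hypoxia genes, 14 and 15 of the 17 matched members had a gene-end peak in 5XFAD 1 and 2, against 7 and 8 in WT 1 and 2, without overlap. These are 82.4% and 88.2% in 5XFAD and 41.2% and 47.1% in WT, beside 40.9% and 49.0% of all genes in 5XFAD and 33.3% and 43.5% in WT. The counts per library are with all peaks only, and list length enters them. Called 5XFAD only were 5 members (29.4%, beside 3.19% of all genes) and WT only 0 (beside 0.58%). They were Egln2, a prolyl hydroxylase that senses oxygen, Epas1, which encodes HIF-2 alpha, and the targets Adm, a vasodilator peptide gene, Bnip3 and Ero1a. Ero1a was the single member still called with equal numbers of peaks, where 2.25% of all genes were called. It was covered over 1206 and 2375 bp in 5XFAD and 0 and 0 bp in WT, and its peak at chromosome 14, 45318797 to 45319766 starts 225 bp upstream of the gene, with scores of 70 and 143. All 4 total cell lists held a peak there. Bnip3 was covered over 805 and 2177 bp in 5XFAD and 0 and 531 bp in WT, the WT bases lying away from the gene ends. Adm had best scores of 59 and 62 and Egln2 of 54 and 66 where each list starts at 20. None of the 2 merged regions at Egln2 was itself 5XFAD only. Hif1a, the gene of HIF-1 alpha, had no gene-end peak in any list and was covered over 487 and 1972 bp in 5XFAD against 430 and 511 bp in WT.

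Counted by region, 13 of the 69 regions at hypoxia genes were 5XFAD only (18.8%, beside 9.17% of all regions) and 2 were WT only (2.90%, beside 1.85%). Egln3, another oxygen-sensing hydroxylase, had 3 of them, all at least 89109 bp from the gene, which is the nearest coding gene to each. With equal numbers of peaks 4 of 44 regions were 5XFAD only (9.09%, beside 7.15%) and 3 were WT only (6.82%, beside 5.63%). Of the 69 regions, 3 were 5XFAD only both ways (4.35%, beside 2.81%). In total cells, 7 and 3 of the 13 regions held a peak in 5XFAD 1 and 2, and 3 and 5 in WT 1 and 2. These ranges overlap, and no genotype pattern could be read from them.

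At disease-associated microglia genes, all called regions were 5XFAD only when all peaks were used. Of 181 regions assigned to the 25 genes, 33 were 5XFAD only (18.2%, beside 9.17% of all regions) and 0 were WT only (beside 1.85%). For equal numbers of peaks, 18 of 108 were 5XFAD only (16.7%, beside 7.15%) and 4 were WT only (3.70%, beside 5.63%), and 13 of the 181 were called both ways (7.18%, beside 2.81%). Without 5XFAD 1 the count was 81 (46.6%, beside 28.2% of all regions), and without 5XFAD 2, WT 1 or WT 2 it was 40 (30.1%, beside 14.4%), 33 (18.3%, beside 10.4%) and 47 (26.7%, beside 21.7%). By place, 5 of the 33 were at gene ends, 17 inside genes and 11 distal. They belonged to 15 of the 25 genes. In total cells 8 and 7 of the 33 regions held a peak in 5XFAD 1 and 2, and 3 and 2 in WT 1 and 2 (5XFAD-only regions as a whole gave 28.4% and 19.1% in 5XFAD and 15.7% and 13.9% in WT).

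**Figure D2:**
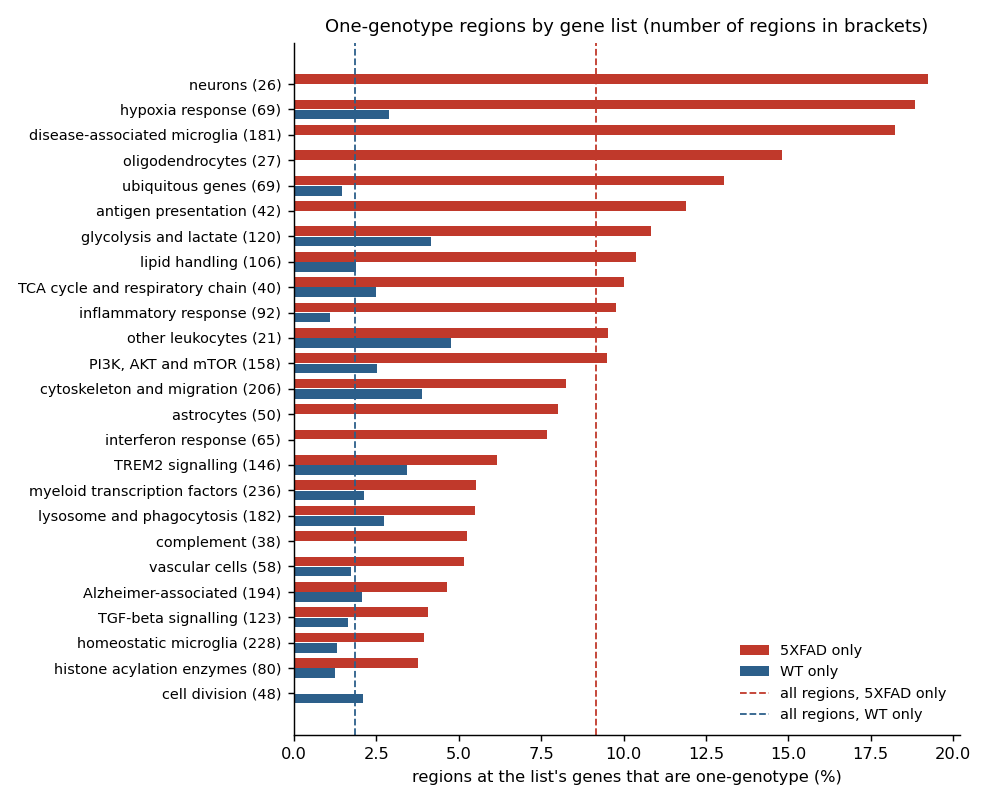
Percentage of the merged regions assigned to each gene list (number of regions in brackets, lists with at least 20 regions) that were 5XFAD only (red) or WT only (blue), with dashed lines for all merged regions. Neuronal genes, of whose 5 5XFAD-only regions 4 lie at Thy1, hypoxia genes and disease-associated microglia genes have the tallest red bars, at 19.2%, 18.8% and 18.2%, and homeostatic microglia genes stay at 3.95%, below the red line at 9.17%.

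Among the members with 3 or more gains, Ank, which encodes a transporter needed to export pyrophosphate, had 6 5XFAD-only regions among 23, all inside the gene between 26748 and 111391 bp from its start, and 0 of the 6 were called both ways. Its covered length was 7319 and 13463 bp in 5XFAD 1 and 2, against 1583 and 3990 bp in WT 1 and 2, which do not overlap. Csf1, the ligand of the survival receptor CSF1R, had 5 among 10, 1 at its start and 4 distal, the strongest at chromosome 3, 107783296 to 107784049, 22827 bp before the gene, with scores of 176 and 221. That Csf1 region and the next, at 107815966 to 107816685, also held peaks in both 5XFAD lists of total cells and in no WT list. Lpl, the lipoprotein lipase gene, had 3 among 12, 1 inside the gene and 2 at 19360 and 47021 bp from it, and its covered length of 3901 and 4524 bp in 5XFAD lay above the 928 and 2220 bp in WT. Timp2, an inhibitor of metalloproteinases, had 3 and was covered over 1804 and 5843 bp in 5XFAD and 1344 and 1865 bp in WT, ranges that overlap. Cadm1, a cell adhesion molecule, had 4 gains among 39 regions, all inside the gene, where 9.41% of all intragenic regions were 5XFAD only. It had no gene-end peak in any list, and a covered length of 20762 and 31782 bp in 5XFAD and 11994 and 20375 bp in WT. With equal numbers of peaks its covered lengths overlapped, at 17825 and 21007 bp in 5XFAD and 11994 and 17998 bp in WT.

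Igf1, Lyz2 and Ctsd were the members called at gene ends (12% of 25, beside 3.19%), and the first 2 were also called with equal numbers of peaks. Igf1, a growth factor gene, was covered over 1593 and 2602 bp in 5XFAD and 0 and 0 bp in WT, and its regions at chromosome 10, 87857320 to 87858712 and 87861812 to 87862461 were called both ways. Neither held a peak in any total cell list. Ctsd, the lysosomal protease cathepsin D, was covered over 336 and 1786 bp in 5XFAD and 0 and 0 bp in WT, with low scores of 49 and 49 in its called region. Axl, a receptor for dying cells, and Itgax, the CD11c integrin, had gene-end peaks in all 4 lists but more covered bases in 5XFAD, 2984 and 3662 bp against 773 and 1321 bp in WT for Axl and 1587 and 2638 bp against 315 and 866 bp in WT for Itgax. Lgals3, which encodes galectin-3, was covered over 919 and 1238 bp in 5XFAD and 523 and 649 bp in WT and had a distal gain 5986 bp before its start. Single gains were also assigned to Fabp5, Cd63, Trem2 and Gpnmb, and 2 to Cd9. Trem2, the receptor on which the programme depends, was covered over 1409 and 2966 bp in 5XFAD and 1727 and 2808 bp in WT, which did not separate.

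Of the 25 genes, 17 had covered bases in all 4 lists, and 9 of these (52.9%) had more in every 5XFAD than in every WT library, beside 32.7% of the 8539 such genes. They were Tyrobp, Axl, Lpl, Itgax, Cd63, Lgals3, Ank, Cadm1 and B2m, and none lay below (beside 2.34%). Under equal numbers of peaks 7 of 17 lay above (41.2%, beside 33.3%) and Trem2 and Csf1 below (11.8%, beside 7.14%). Apoe, the lipoprotein gene of disease-associated cells, was covered over 710 and 1458 bp in 5XFAD and 723 and 1044 bp in WT. Tyrobp, the adaptor of TREM2, had best gene-end scores of 383 and 646 in 5XFAD and 374 and 475 in WT and was covered over 1852 and 1890 bp in 5XFAD and 1784 and 1764 bp in WT. Spp1, Clec7a and Cst7 had no region called in either direction.

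**Figure D3:**
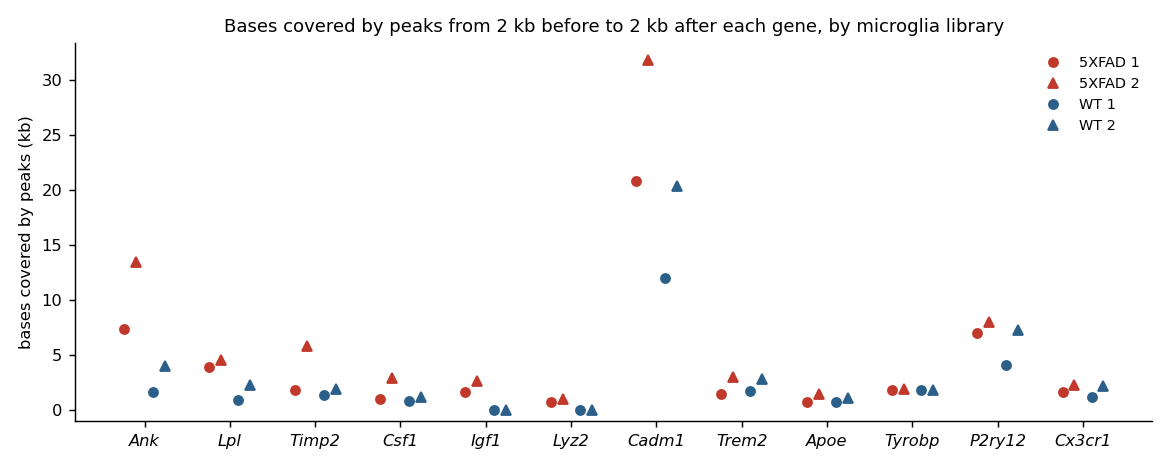
Bases covered by peaks (vertical axis, kb) from 2 kb before to 2 kb after 12 genes in microglia 5XFAD 1 and 2 (red) and WT 1 and 2 (blue); circles are libraries numbered 1 and triangles libraries numbered 2. At Ank both red points (7319 and 13463 bp) lie above both blue points (1583 and 3990 bp), at Igf1 and Lyz2 the blue points are at 0, and at Trem2, Apoe and P2ry12 the colours overlap.

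At homeostatic microglia genes, one-genotype regions were fewer. Of 228 regions at the 20 genes, 9 were 5XFAD only (3.95%, beside 9.17%) and 3 were WT only (1.32%, beside 1.85%). Equal numbers of peaks gave 4 (2.33%, beside 7.15%) and 11 (6.40%, beside 5.63%) of 172. The 5XFAD-only count was 33 without 5XFAD 1 (14.8%, beside 28.2%), 14 without 5XFAD 2 (6.86%, beside 14.4%), 13 without WT 1 (5.78%, beside 10.4%) and 41 without WT 2 (19.8%, beside 21.7%). None of the 20 genes was called at a gene end in either direction, beside 3.19% and 0.58% of all genes. A gene-end peak in all 4 lists was held by 15 of them, beside 29.4% of all genes. P2ry12, the purinergic receptor that marks resting microglia, was covered over 7003 and 8010 bp in 5XFAD and 4098 and 7284 bp in WT. Cx3cr1, the fractalkine receptor gene, was covered over 1669 and 2308 bp in 5XFAD and 1150 and 2205 bp in WT. Both overlapped between genotypes, and of the 19 members covered in all 4 lists Aif1 alone had more bases in every 5XFAD library (5.26%, beside 32.7%).

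Glycolysis genes, which supply the lactate behind the mark, had no member of 25 called at a gene end in either direction (beside 3.19% and 0.58%). Under equal numbers of peaks Pdk1, a kinase that holds back pyruvate dehydrogenase, was WT only (4.0% of 25, beside 1.78%). Their 120 regions were 5XFAD only in 13 cases (10.8%, beside 9.17%) and WT only in 5 (4.17%, beside 1.85%), and equal numbers of peaks gave 4 (5.13%, beside 7.15%) and 5 (6.41%, beside 5.63%) of 78. Pfkfb3, which makes the activator of phosphofructokinase, had 4 5XFAD-only regions and 1 WT-only region among 22. Slc16a1, the lactate transporter MCT1, had 3 gains and 1 loss among 11, and its covered length of 2388 and 3921 bp in 5XFAD lay above the 799 and 1262 bp in WT. Of the 18 members covered in all 4 lists, 9 had more bases in every 5XFAD library (50%, beside 32.7%) and 1 had fewer (5.56%, beside 2.34%). The 9 were Hk3, Pfkl, Pfkm, Pfkfb3, Aldoa, Eno1, Eno2, Slc16a1 and the glucose transporter gene Slc2a1. Pkm, the pyruvate kinase gene, was the one with fewer, 339 and 360 bp in 5XFAD against 610 and 659 bp in WT, and it was also below with equal numbers of peaks, as 7 of 15 members were above (46.7%, beside 33.3%). Ldha, which makes lactate, was covered over 693 and 726 bp in 5XFAD and 0 and 1611 bp in WT, with no gene-end peak in any list.

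Over all 26 gene lists, 17 members had a 5XFAD-only gene-end peak (4.13%, beside 3.19% of all genes) and 2 a WT-only one (0.485%, beside 0.58%), shares near those of all genes. Besides those above, the 5XFAD-only members included Thy1, Apoc2, a lipoprotein gene, Cebpb, a myeloid transcription factor, Itgb8, an integrin that frees TGF-beta, Akt1, a kinase of the PI3K pathway, Tln1, which links integrins to actin, the B cell gene Ms4a1 and the housekeeping gene Ppia. The WT-only members were Scd2, a fatty acid desaturase, and Rrm2, a subunit of ribonucleotide reductase. Scd2 scored 24 and 29 and Rrm2 46 and 46 in the WT lists, near the lowest score of 20. Some 5XFAD-only calls were as weak: Ms4a1 scored 39 and 43, Cebpb 48 and 52 and Tln1 50 and 51 in the 5XFAD lists. Mean score percentiles were 11.2, 19.9 and 20.6 for these, and 2.11 for Scd2 and 23.7 for Rrm2. The other 5XFAD-only members named in this paragraph stood between 25.9 (Itgb8) and 93.7 (Thy1). With equal numbers of peaks 13 members were 5XFAD only (3.16%, beside 2.25%). At that setting 10 members were WT only (2.43%, beside 1.78%), among them Pdk1, Pycard, Mtor, Eif4ebp1, Bin1, Hdac1, Crebbp, Cdc42 and Actg1, and every one of those named had a peak in at least 1 full 5XFAD list. Antigen presentation genes had 5 of 42 regions 5XFAD only (11.9%) and interferon response genes 5 of 65 (7.69%), with 0 WT only in both. Under equal numbers of peaks antigen presentation genes had 0 of 25 regions 5XFAD only and 0 WT only, and interferon response genes had 2 of 52 5XFAD only (3.85%, beside 7.15%) and 1 WT only (1.92%, beside 5.63%). Myeloid transcription factors had 13 of 236 regions 5XFAD only (5.51%), lysosome and phagocytosis genes 10 of 182 (5.49%) and Alzheimer-associated genes 9 of 194 (4.64%), all beside 9.17% of all regions. WT only were 5 (2.12%), 5 (2.75%) and 4 (2.06%) in the same order, beside 1.85%. Under equal numbers of peaks, 8 of 150 (5.33%), 5 of 130 (3.85%) and 3 of 134 (2.24%) were 5XFAD only, beside 7.15%. WT only were then 11 (7.33%), 7 (5.38%) and 9 (6.72%), beside 5.63%.

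Genes of other brain cells had called regions as well. The 27 regions at oligodendrocyte genes included 4 in 5XFAD only (14.8%, beside 9.17%) and 0 in WT only, 3 of them at Mbp, a myelin protein gene. Mbp was covered over 11147 and 15000 bp in 5XFAD and 5475 and 6770 bp in WT and had no gene-end peak in any total cell list. Away from the gene ends, total cells 5XFAD 2 held peaks at the gains at chromosome 18, 82469557 to 82470771 and 82575178 to 82576221. Total cells 5XFAD 1 and both WT total cell lists held none at the Mbp gains. Slc1a3, a glutamate transporter gene of astrocytes, had 3 of the 4 gains among the 50 astrocyte regions (8.0%, beside 9.17%). Neuronal genes had 5 of 26 (19.2%), 4 of them at Thy1. The part of other cells of the CD11b fraction in these gains was not tested.

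Inside genes, 2420 5XFAD-only regions fell in 1715 genes and 512 WT-only regions in 452. Genes with a gain were long, the median length being 73.1 kb for them, 104 kb for genes with a loss and 47.9 kb for all genes with an intragenic region. A longer gene can hold more regions and so has more chances of a called one. These medians therefore show no preference of gains or losses for long genes. Foxp1, a transcription factor gene, had 10 gains among 40 intragenic regions and 1 loss. Snx29, a sorting nexin gene, had 9 among 65, Arid1b, a subunit of the BAF remodelling complex, 9 among 44, Etl4 8 among 18 and Elmo1, which works with DOCK proteins in engulfment, 8 gains and 5 losses among 78. Etl4 was covered over 6917 and 13845 bp in 5XFAD and 0 and 1419 bp in WT. The highest-scoring intragenic gain lay in Eps8, an actin regulator, at chromosome 6, 137574633 to 137576101 with scores of 355 and 500. A second Eps8 region among the highest 10, at 137629842 to 137631897, scored 229 and 377. Others of the highest 10 lay in Plcl1, Itpr2, an inositol trisphosphate receptor gene, Rftn1, a lipid raft protein gene, Etl4, Vkorc1l1, Pick1, Zfand2a and Elmo1.

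Among the 10 highest-scoring distal gains, 1 each lay 4286 bp from Pdcd1lg2, which encodes the checkpoint ligand PD-L2, with scores of 257 and 347, 4888 bp from Slamf7, with 210 and 295, 7857 bp from Cd48, with 172 and 389, and 3151 bp from Ctse, the protease cathepsin E, with 225 and 230. Slamf7 and Cd48, which encode immune cell receptors of one family, are neighbours on chromosome 1, and their gained regions lie at 171657925 to 171659176 and 171672609 to 171673388. The strongest distal gain, 36500 bp from Osbpl8, an oxysterol-binding protein gene, had scores of 421 and 570. Another lay 41919 bp from Nlrp1b, an inflammasome sensor. The rest were near Mzt1, Sfpq, Slc38a1 and Gm3667. Of these 10 regions, 3 and 2 held a peak in total cells 5XFAD 1 and 2 and 0 and 0 in total cells WT 1 and 2.

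Many of the strongest losses at gene ends and inside genes had peaks in total cells of both genotypes. Of the 10 highest-scoring WT-only regions at gene ends, 8 and 9 held a peak in total cells 5XFAD 1 and 2 and 8 and 8 in total cells WT 1 and 2. At their head stood Aida, whose region at chromosome 1, 183299161 to 183299554 scored 241 and 429 in WT 1 and 2, followed by Pnp2, Ubxn2a, Ptpn12, a tyrosine phosphatase gene, Tmem192, Gm3239, Zfp12, Ggact, Gm26650 and D030056L22Rik. Inside genes the 10 highest losses were in Filip1l (where Cmss1 overlaps), Zc3h7a, Lrp6, a Wnt co-receptor gene, Erlec1, Crybg3, Poc1a, Slmap, Ppp1r9a, Lrrc49 and Pknox2, and 7 and 6 of these held a peak in total cells 5XFAD 1 and 2 and 7 and 7 in total cells WT 1 and 2. The genes with the most intragenic losses were Elmo1 with 5, Jmjd1c, a jumonji-domain protein gene, with 4, and Dock4, Ablim1 and Mical3 with 3 each. Dock8, a guanine nucleotide exchange factor of leukocyte migration, also had 3 losses and no gain among 34 regions. Ablim1, an actin-binding protein gene, was covered over 2164 and 4931 bp in 5XFAD and 5938 and 8595 bp in WT, without overlap.

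Of the 10 highest-scoring distal losses, 6 lay on chromosome 14 and 2 at Gnb4, and 4 and 4 of the 10 held a peak in total cells 5XFAD 1 and 2 and 6 and 4 in total cells WT 1 and 2. Gnb4, a G protein beta subunit gene, had 2 distal WT-only regions on chromosome 3, at 32618737 to 32620832 with scores of 225 and 259 and at 32637868 to 32638939 with 180 and 276. Chromosome 14 had 81 WT-only regions among 1995 (4.06%), while the other autosomes and X had 1.07% to 2.46%. It also stood highest with equal numbers of peaks, at 114 of 1390 regions (8.20%, beside 5.63%), and for regions called both ways, at 53 (2.66%, beside 0.897%). Without WT 1 the count was 269 (13.7%, beside 11.1% of all regions) and without 5XFAD 2 it was 149 (8.97%, beside 6.70%). Losses at Pnp2, including 2 distal regions, at Samd4, Kcnrg, Slc39a14 and Tmem260 were among the highest distal ones, all on chromosome 14. Of the 81 regions, 35 and 23 held a peak in total cells 5XFAD 1 and 2 and 29 and 21 in total cells WT 1 and 2. 5XFAD-only regions on the autosomes and X were spread more evenly, at 7.02% on chromosome 16 to 10.2% on chromosome 19.

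On chromosome Y, 7 and 13 peaks were listed in 5XFAD 1 and 2 and 10 and 17 in WT 1 and 2. Between 6 and 8 Mb there were 0 and 0 peaks in 5XFAD and 3 and 6 in WT, and 2 regions there were WT only, at 6735750 to 6736265 and at 7036756 to 7037315. The second scored 153 and 242 in WT 1 and 2 and is 119638 bp from Gm20830, the nearest coding gene. No total cell list held a peak at either. Much of the Y chromosome consists of near-identical repeats, so these positions are uncertain. The strain of the WT mice is not given in the sources used here, and its part in the losses on chromosomes 14 and Y was not tested.

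**Figure D4:**
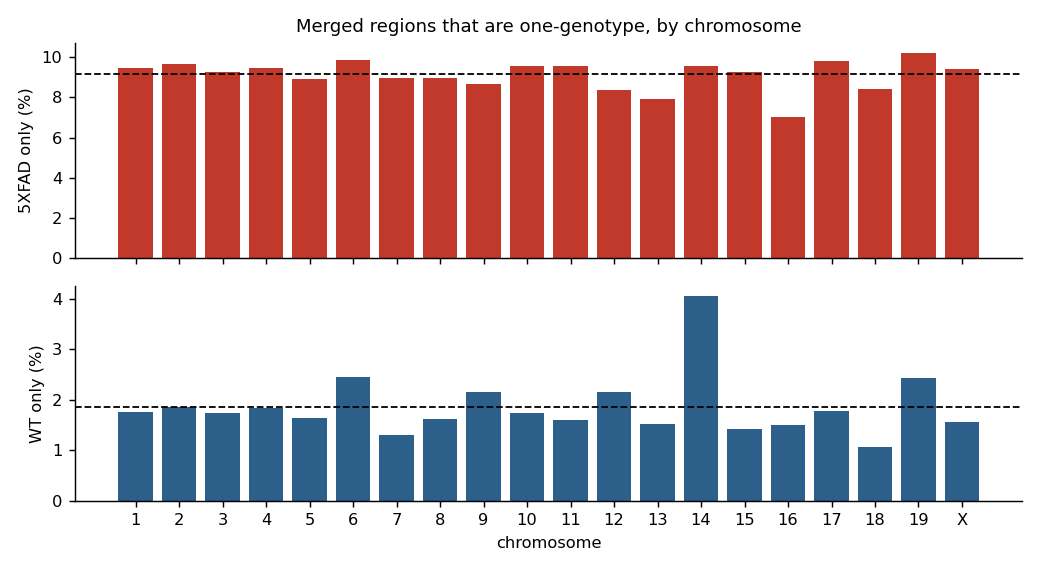
Percentage of the merged regions of each chromosome that were 5XFAD only (upper panel, red) or WT only (lower panel, blue), with dashed lines at 9.17% and 1.85% for all regions; Y, with 22 regions, is left out. The red bars run between 7.02% and 10.2%, and the blue bar of chromosome 14, at 4.06%, is the highest.

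Total cell libraries played no part in choosing the regions. Of the 5XFAD-only microglial regions, 28.4% and 19.1% held a peak in total cells 5XFAD 1 and 2, against 15.7% and 13.9% in total cells WT 1 and 2. Of the WT-only regions, 35.7% and 23.8% held one in 5XFAD and 27.5% and 25.7% in WT, and of all merged regions 42.8% and 32.3% in 5XFAD and 28.1% and 25.4% in WT. Total cells 5XFAD 1 had the longest of these 4 lists, and the difference for 5XFAD-only regions, 8.97 percentage points (exact permutation p = 0.333, the smallest possible, n = 2 each), was 4.32 without that library and 13.6 without total cells 5XFAD 2. For WT-only regions it was 3.19 points (exact permutation p = 1.0, n = 2 each), which turned to -2.75 without 5XFAD 1 and was 9.12 without 5XFAD 2. Regions held by all 4 microglia lists differed most, at 71.4% and 58.4% in 5XFAD and 46.8% and 43.5% in WT total cells. That is 19.8 points, and all merged regions differed by 10.8 points. To lessen the part of list length, the share of 5XFAD-only regions was divided by the share of WT-only regions within each library. The comparison is with WT-only regions alone, so it shows no rise particular to 5XFAD-only regions. This ratio was 0.795 and 0.801 in 5XFAD and 0.570 and 0.540 in WT total cells, a difference of 0.243 (exact permutation p = 0.333, the smallest possible, n = 2 each) that stayed between 0.227 and 0.258 on omission of any single total cell library.

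For regions called both ways the ratio was 0.955 and 0.959 in 5XFAD and 0.586 and 0.509 in WT total cells. With calls from equal numbers of peaks it was 0.923 and 0.956 in 5XFAD and 0.620 and 0.631 in WT. Under these settings, and also with equal numbers of total cell peaks, both 5XFAD ratios lay above both WT ratios, although 2 libraries against 2 cannot reach a p of 0.05. By place it was 0.714 and 0.737 in 5XFAD against 0.590 and 0.513 in WT at gene ends, 0.814 and 0.900 against 0.571 and 0.554 in WT inside genes, and 1.02 and 0.709 against 0.570 and 0.649 in WT for distal regions. Few regions carried the full pattern in both preparations. Of the 4505 5XFAD-only regions, 222 (4.93%) were also 5XFAD only among the total cell lists and 57 (1.27%) were WT only there, beside 6.45% and 1.26% of all merged regions. Of the 910 WT-only regions the counts were 19 (2.09%) and 19 (2.09%), and 2707 of the 5XFAD-only (60.1%) and 469 of the WT-only regions (51.5%) had no peak in any total cell library. Microglia are part of total cells, and fewer microglia and less signal per microglial cell cannot be told apart in those libraries.

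**Figure D5:**
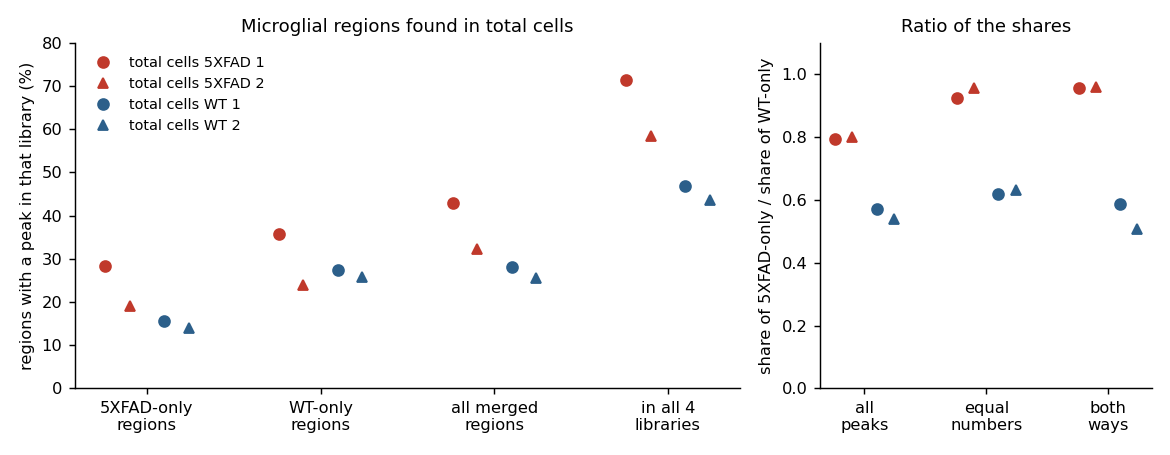
Left, percentage of microglial regions (5XFAD only, WT only, all merged, and held by all 4 microglia lists) with a peak in each total cell library, 5XFAD in red and WT in blue. Right, share of 5XFAD-only over share of WT-only regions in each library, which lies at 0.795 and 0.801 in 5XFAD and 0.570 and 0.540 in WT with all peaks, and higher in both 5XFAD libraries with the other calls too.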

How the data were processed

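H4K12la CUT&Tag peaks were analysed in 4 microglia libraries, 2 per genotype, and looked up in 4 total cell libraries. The submitters' processing notes name Bowtie2, deepTools and fastp 0.19.6 and the build GRCm38 (mm10), and peak caller, threshold and control were not given in the sources used here. As deposited by the authors, there was 1 list per library with chromosome, start, end and a score at or above 20 whose unit is not stated. Starts were taken to be 0-based and are printed 1-based. Depth is unknown.

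Any overlap of 1 base counted as presence. Gene-end windows reached 2 kb to each side of the annotated start and end of 21887 RefSeq protein-coding genes (GRCm38.p6), and strand was at hand for 17492. A region was assigned to each gene within 2 kb, or otherwise to the nearest. Scores ranked peaks within a list, apart from the alternative setting with a score of at least 50 in every list. Median scores were 79 and 98 in microglia 5XFAD 1 and 2 and 66 and 73 in microglia WT 1 and 2. That cut-off therefore need not act alike on the lists. Tests were exact two-sided permutations over libraries (Python 3.11.15, NumPy 2.4.6, pandas 2.3.3). Overlaps, calls and permutations were first tested on simulated data. No list was a copy of another, 193 exact intervals at most being shared.

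The members and gene lists were chosen with earlier results of these data known. Named were list members called in 1 genotype or holding 3 or more one-genotype regions, disease-associated members with any, the 10 highest-scoring genes and regions of each class called both ways, the 5 genes with most intragenic calls and checks of the labels; Trem2, Tyrobp, Apoe, P2ry12, Cx3cr1, Pkm and Ldha were named as known genes, and genes whose covered bases did not overlap were named after their values were seen. Of the list symbols, Ca9, Lrrc33 and Aars1 had no match. Alternatives were equal numbers of peaks, a score of at least 50, other windows, overlaps and merging, a replicate block and leaving out each library. Some called list members are not reported here.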

Additional observations from a re-analysis of the deposited data

Results flagged for a closer look

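The share of distal peaks moved in opposite directions in the preparations. It was higher in both 5XFAD than in both WT microglia libraries, by 0.516 percentage points, and lower in both 5XFAD than in both WT total cell libraries, where 5XFAD minus WT was -0.985 points. The values were 19.9% and 19.5% in 5XFAD against 19.2% and 19.1% in WT microglia. Total cells had 17.3% and 16.4% in 5XFAD against 17.8% and 17.9% in WT. The difference between the differences was 1.5 points (exact permutation of genotypes within preparations, two-sided p = 0.0556, the smallest possible, among 33 measures examined in this way, so that none would pass an adjustment over them).

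Peaks on contigs outside the chromosomes entered no comparison. Of these contigs, 4_GL456216_random had 3 and 3 peaks in 5XFAD microglia against 1 and 1 in WT microglia, and X_GL456233_random had 2 and 2 against 1 and 1 in WT microglia. Un_JH584304 went the other way, with 7 and 9 peaks in 5XFAD against 11 and 13 in WT microglia.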

How the results depend on the processing

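Counts moved with the peaks that entered and with the omission of a library. Genes called 5XFAD only at a gene end were 228 both ways, and genes called WT only were 389 with equal numbers of peaks, 77 with a score of at least 50 and 62 both ways. Regions were 2304 and 1383 in 5XFAD only with equal numbers and both ways, against 1815 and 441 in WT only, where a score of at least 50 left 452. Disease-associated genes had 18 gained regions with equal numbers, homeostatic genes 4 with equal numbers and 14 with a score of at least 50, chromosome 14 had 49 WT-only regions at that score, and 10 list genes were WT only with equal numbers. The place of regions followed the window. Gene-end shares of 5XFAD-only regions were 18.4% with windows of 1 kb and 34.3% with 5 kb, against 18.9% and 34.1% of WT-only regions. Intragenic shares were 57.7% and 46.8% for 5XFAD only (51.0% with equal numbers) and 60.4% and 50.2% for WT only, and distal shares 23.8% and 18.9% for 5XFAD only (24.4% with equal numbers) and 15.7% with 5 kb for WT only. Equal numbers of peaks reversed 3 small differences of 5XFAD minus WT: the gene-end share of peaks to 0.318 points (-0.800 with all peaks), the intragenic share to -1.08 (0.284 with all peaks) and the presence of WT-only regions in total cells to -0.659 (3.19 with all peaks). The cause was not tested.

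Leaving out 1 library gave 796 to 2216 genes in 5XFAD only and 154 to 571 in WT only, 5034 to 13492 and 1041 to 5378 regions, 33 to 81 gained regions at disease-associated and 13 to 41 at homeostatic genes, and 87 to 269 WT-only regions on chromosome 14. Differences of 5XFAD minus WT then ranged over 2049.5 to 13883.5 peaks, 1.39 to 15.6 Mb, 15.5 to 120.5 bp of median width, 319.5 to 2538.5 genes, -1.76 to 0.163 points at gene ends, -0.729 to 1.30 inside genes and 0.308 to 0.724 distal. In total cells they ranged over 4.32 to 13.6 points for 5XFAD-only, -2.75 to 9.12 for WT-only and 5.52 to 16.1 for all regions, and the ratio over 0.227 to 0.258. Across regions, library 2 minus library 1 in 5XFAD had a correlation of -0.038 with the same difference in WT. A shift shared by all regions does not enter this correlation. Both libraries numbered 2 had longer lists than those numbered 1. 5XFAD 2 and WT 2 alone held 3062 regions and 5XFAD 1 and WT 1 alone 50. The cross pairs held 415 (5XFAD 2 and WT 1) and 324 (5XFAD 1 and WT 2). Whether the replicate numbers mark a shared batch was not tested. With a replicate block the counts are 698 genes and 4505 regions by construction, and library values each had an exact permutation p of 0.5, the smallest that 2 pairs allow. Other windows, merging within 1 kb and 50% coverage kept the counts of genes and regions within 1.5 times, and depth being unknown, absent peaks limit every loss.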
